A study of Mus musculus with 4 samples.

Results

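miR-21a, miR-146a, miR-146b and miR-155 are miRNA linked to inflammation and to glia, and miR-338 and miR-219a-2-3p are miRNA linked to oligodendrocytes, the cells that make myelin. They were followed here in cultured cortical neurons of WT and TgAD mice as 8 mature arms chosen by name out of the 1966 miRNA listed for each library, mmu-miR-21a-5p, mmu-miR-21a-3p, mmu-miR-146a-5p, mmu-miR-146b-5p, mmu-miR-155-5p, mmu-miR-338-3p, mmu-miR-338-5p and mmu-miR-219a-2-3p (the prefix mmu, for mouse, is left out below). Of the 8, 3 had enough reads to be compared between genotypes, 2 had between 0 and 4 reads per library, and 3 had 0 reads in every library.

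The libraries were made from small RNA of primary cortical neurons, with 2 libraries of the genotype WT and 2 of the genotype APP/PS1 mutant, named TgAD below. TgAD neurons carry a mutant APP transgene, part mouse and part human in sequence with the Swedish mutations, and a human presenilin 1 transgene without exon 9. The promoter comes from the mouse prion gene and, per the methods, directs expression chiefly to neurons of the central nervous system. Transgene expression by cell type in these cultures is not given. Cortex was taken at E16.5 per the labels, each embryo was cultured separately and genotyped per the methods, and the cells were kept 5 days in vitro in serum-free medium. The labels give no sex or litter.

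In background terms, NF-kB is a transcription factor that switches on genes of the inflammatory response. It also drives transcription of the miR-146a and miR-155 precursors. miR-146a in turn represses adaptor proteins upstream of NF-kB, such as TRAF6 and IRAK1, and so acts as a brake, whereas miR-155 represses the cytokine inhibitor SOCS1 and favors inflammation. miR-21a is abundant in many cell types, rises in reactive astrocytes and represses PDCD4, an inhibitor of translation. miR-219 and miR-338 accumulate when oligodendrocyte precursors differentiate, where they repress factors that keep precursors immature.

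A miRNA recognizes its targets mainly through its seed, bases 2 to 8 from the 5′ end, which stand in capitals in the mature sequences below (RefSeq, GRCm38.p6, 7 of the 8 arms matched). These sequences are shown because miR-21a-5p, miR-146a-5p and miR-155-5p are the members with enough reads to compare, and because miR-146a-5p and miR-146b-5p have the same seed, so that only bases after it tell their reads apart.
miR-21a-5p: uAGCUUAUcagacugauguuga
miR-146a-5p: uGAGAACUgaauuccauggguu
miR-146b-5p: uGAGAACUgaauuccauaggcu
miR-155-5p: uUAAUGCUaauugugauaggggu
Counted from the 5′ end, miR-146a-5p and miR-146b-5p differ by 2 of 22 bases, G18A and U21C (the base of miR-146a-5p first). Reads had been mapped without mismatch.

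In GRCm38 and GENCODE M21, Mir21a lies on chromosome 11 from 86584067 to 86584158 on the minus strand, within the 3′ UTR in the last exon of Vmp1, a gene of autophagy. Mir146, the hairpin of miR-146a, lies on chromosome 11 from 43374397 to 43374461 on the minus strand, outside any other annotated gene. Mir146b is on the plus strand of chromosome 19 from 46342762 to 46342870, in an intron of Mfsd13a. Mir155 is on the plus strand of chromosome 16 from 84714140 to 84714204, in an exon of its host lincRNA Mir155hg. Mir338 is on chromosome 11 from 120014765 to 120014862 on the minus strand, in an intron of Aatk, and Mir219a-2 is on chromosome 2 from 29845631 to 29845727 on the minus strand.

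The libraries held between 2070204 and 4811010 reads counted on miRNA. Because a read is a whole miRNA, levels are compared between miRNA as reads without a correction for length. Intervals on them cover counting error only, since the reads carry no molecular identifiers. Differences between miRNA in how well they were captured and counted were not measured, so ranks and orders below are those of reads. Normalized levels are CPM, reads scaled to a common library size with TMM in edgeR, with the SD over 2 libraries. A count of 0 allows up to 3 reads, which is 0.746 to 1.28 CPM at these depths.

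The deposited table of normalized values carries other library names than the count tables. Reads recovered from it equal those of the first TgAD count table in the column named for the first WT library, those of the first WT table in the column named for the second WT library, and those of the second TgAD table in a column named TR_1. Its last column, TR_2, equals no count table. The groups below follow the labels of the count tables. The comparison by the names of the normalized table and the comparisons without each library are given beside the results where they differ.

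miR-21a-5p was the most abundant of the 8 and ranked 12th of all listed miRNA by reads. Its reads numbered 40266 and 65747 in WT and 41487 and 55180 in TgAD, or 1.95% (95% exact interval 1.93 to 1.96), 2.39% (2.37 to 2.41), 1.50% (1.49 to 1.52) and 1.15% (1.14 to 1.16) of the reads. Normalized, WT neurons had 17138 and 22581 CPM, TgAD neurons 15120 and 13721 CPM. Both TgAD libraries lay below both WT libraries, although the first WT library was closer to the first TgAD library than to the second WT library. WT neurons thus averaged 19859 ± 3849 CPM, against 14421 ± 989 CPM for TgAD (SD, n = 2 per genotype). The log2 fold change was -0.46 (standard error, SE, 0.228, 95% interval -1.01 to 0.088, padj = 0.203 by the edgeR quasi-likelihood F-test, Benjamini-Hochberg adjusted), which was not significant by this test. Without the first WT library it was -0.65 (padj = 0.0999, edgeR), past the cutoffs given below.

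miR-146a-5p, the brake on NF-kB signaling, ranked 89th and was read 2116 and 2090 times in WT and 2250 and 4201 times in TgAD. WT neurons had 901 and 718 CPM of it after normalization, TgAD neurons 820.0 and 1045 CPM. The genotypes overlapped, with the highest and the lowest value in the second TgAD and the second WT library. Averages were 809 ± 129 CPM for WT against 932 ± 159 CPM for TgAD (SD, n = 2 per genotype). The log2 fold change of 0.20 (SE 0.221, 95% interval -0.33 to 0.74, padj = 0.535 by the edgeR quasi-likelihood F-test, Benjamini-Hochberg adjusted) was not significant by this test.

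miR-155-5p, which NF-kB induces in activated immune cells, was scarce. It ranked 313th, with 67 and 45 reads for WT against 128 and 87 for TgAD. WT neurons had 28.5 and 15.5 CPM, TgAD neurons 46.6 and 21.6 CPM. The second TgAD library lay between the WT libraries and only the first was above them. Between averages of 22.0 ± 9.24 CPM for WT and 34.1 ± 17.7 CPM for TgAD (SD, n = 2 per genotype), the log2 fold change was 0.63 (SE 0.470, 95% interval -0.50 to 1.76, padj = 0.374 by the edgeR quasi-likelihood F-test, Benjamini-Hochberg adjusted). Its direction rested on the first TgAD library, without which it was -0.093. Without the first WT library or the second TgAD library it was larger, 1.13 and 1.10, and without the second WT library it was 0.25.

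**Figure D1:**
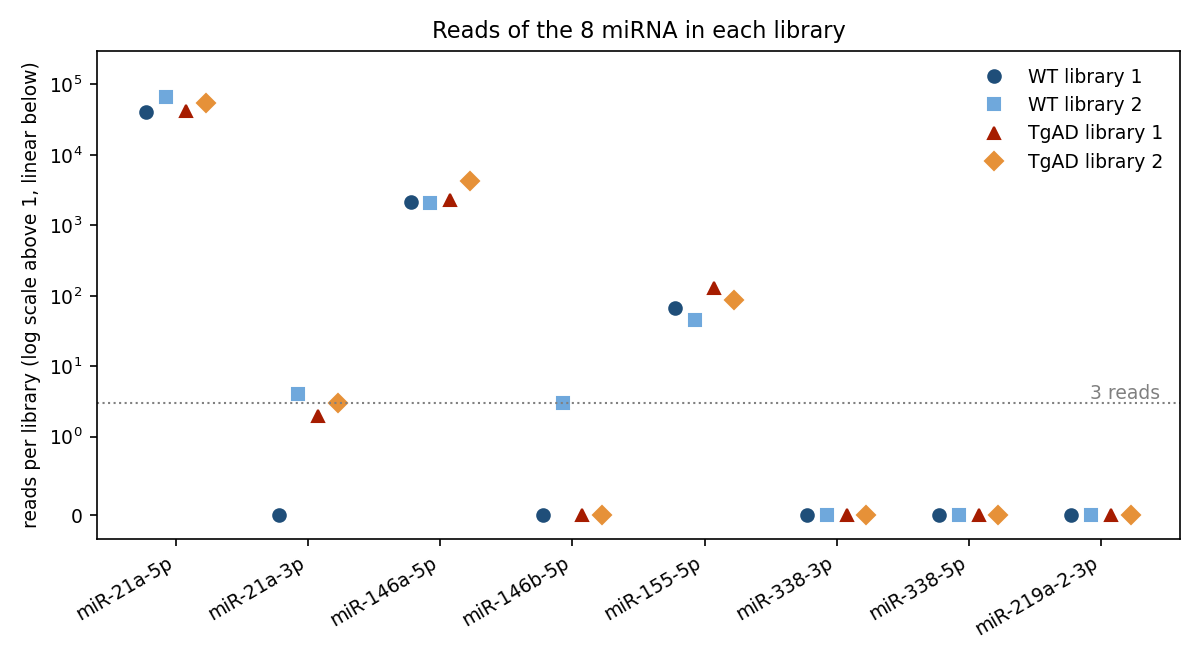
Reads of each of the 8 miRNA (x axis) in each of the 4 libraries (y axis, log scale above 1 read and linear below), with 1 point per library and a dotted line at 3 reads. miR-21a-5p, miR-146a-5p and miR-155-5p keep the same order in all 4 libraries, while the points of miR-338-3p, miR-338-5p and miR-219a-2-3p all lie at 0.

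Hence 0 of the 3 tested miRNA were past the cutoffs taken for a call, a log2 fold change beyond 0.6 either way at padj below 0.1 (edgeR), and 0 had an unadjusted p under 0.05. Among all 496 tested miRNA 33.1% were past them, 17.3% lower and 15.7% higher in TgAD neurons (86 and 78 miRNA, while with total counts as library size 43 of 165 were higher). DESeq2 also called 0 of the 3. The libraries of the genotypes did not overlap for 1 of the 3, miR-21a-5p, and for 63.1% of all tested miRNA. Both TgAD libraries lay below both WT libraries for 32.5% of the tested miRNA and above them for 30.6%. The median log2 fold change of the 3 was 0.20, beside 0.032 over all tested miRNA.

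The order by reads, miR-21a-5p over miR-146a-5p over miR-155-5p, was the same in every library. Per read of miR-146a-5p there were 19.0 and 31.5 reads of miR-21a-5p in WT, against 18.4 and 13.1 in TgAD. This ratio within a library does not depend on library scaling, and it was lower in both TgAD libraries than in both WT libraries (exact permutation test, two-sided, p = 0.333, the smallest that 2 against 2 libraries can give). The first WT and the first TgAD library were close, at 19.0 and 18.4, and the counting error of the ratio was not computed. For miR-155-5p there were 0.0317 and 0.0215 reads per read of miR-146a-5p in WT and 0.0569 and 0.0207 in TgAD libraries, which overlap.

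These 3 miRNA also stand at the low end of GC content, and in these libraries the fold change of a miRNA moved with its GC content. miR-155-5p has 34.8% GC, miR-21a-5p 36.4% and miR-146a-5p 40.9%, against a median of 47.8% over the 441 tested miRNA with a sequence. Of these 441, the 75 with less than 40% GC had a median log2 fold change of -0.76, and the 69 with 60% or more had a median of 0.32. Around miR-21a-5p, the 102 other tested miRNA within 5 percentage points of its GC content had a median log2 fold change of -0.48, close to its own -0.46. Around miR-146a-5p, 154 such miRNA had a median of -0.39 and 37 of them had a higher log2 fold change than its 0.20. Around miR-155-5p, 68 such miRNA had a median of -0.77 and only 3 of them had a higher value than its 0.63.

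**Figure D2:**
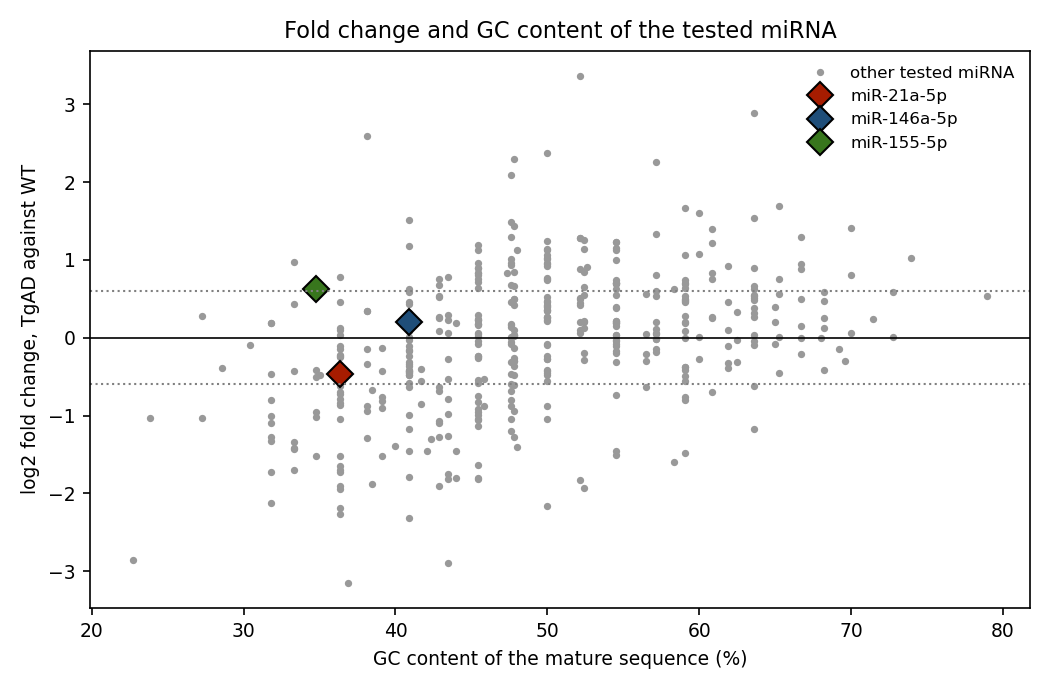
Log2 fold change of TgAD against WT (y axis) against the GC content of the mature sequence in percent (x axis) for 440 tested miRNA, with miR-21a-5p, miR-146a-5p and miR-155-5p as diamonds and the cutoffs of 0.6 in either direction as dotted lines. One further miRNA lies below the axis. miR-21a-5p sits in the middle of the miRNA of like GC content, and miR-155-5p near their upper edge.

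When each library was corrected for GC content by local regression, the log2 fold change of miR-155-5p became 1.36 and that of miR-146a-5p 0.61, and both were past the cutoffs (padj = 0.0620 and 0.0912, edgeR). That of miR-21a-5p changed sign to 0.19 (padj = 0.623, edgeR). Under this correction 141 of 496 tested miRNA passed, 76 of them higher in TgAD neurons, and miR-146a-5p was just past the cutoff of 0.6. With total counts as library size, which shifts the median of all tested miRNA to -0.23, miR-21a-5p was past the cutoffs at -0.71 (padj = 0.0516, edgeR) and miR-146a-5p was at -0.077. With the names of the normalized table, the log2 fold changes were -0.54 for miR-21a-5p, -0.064 for miR-146a-5p and -1.22 for miR-155-5p, and 0 of the 3 passed. The part of GC content and of library scaling in these differences was not tested further.

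**Figure D3:**
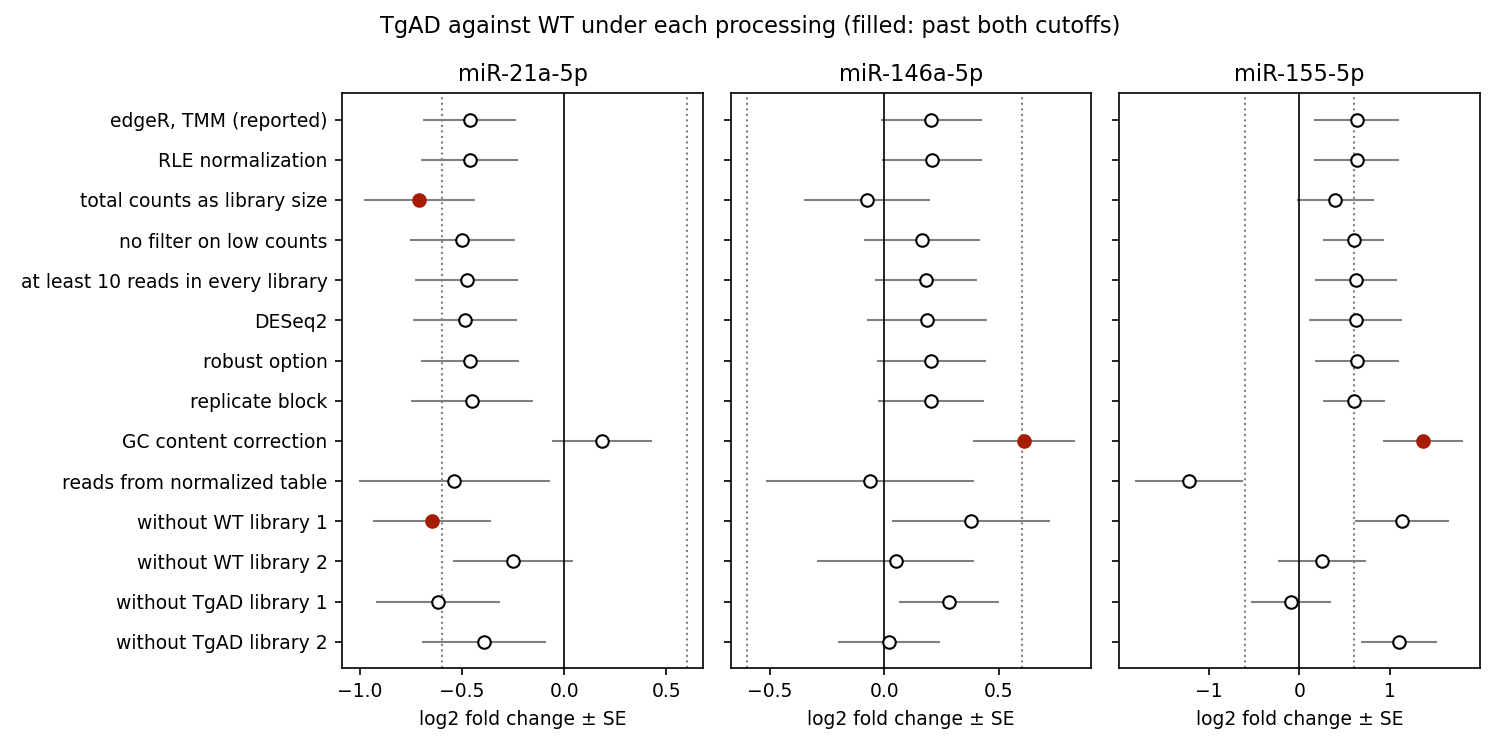
Log2 fold change of TgAD against WT with its SE (x axis) for miR-21a-5p, miR-146a-5p and miR-155-5p under each processing (rows), with filled points past both cutoffs. miR-21a-5p is below 0 in all rows except that of the GC content correction, miR-146a-5p stays between -0.077 and 0.61, and miR-155-5p ranges from -1.22 to 1.36.

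The opposite arms were nearly absent. When a hairpin is cut, 1 arm is usually kept as the guide and the other, the passenger, is degraded. miR-21a-3p, the passenger of miR-21a, was read 0 and 4 times in WT and 2 and 3 times in TgAD, so that miR-21a-5p made up at least 99.99% of the reads of both arms in each library. For miR-146a-3p there were 0 and 1 reads in WT and 1 read in each TgAD library. With so few passenger reads, a difference in arm use of miR-21a or miR-146a between genotypes was not detectable.

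No WT library had a read of miR-155-3p, against 3 and 2 reads for TgAD. The 5p arm was 100% (95% exact interval 94.6 to 100) and 100% (92.1 to 100) of the miR-155 reads in WT and 97.7% (93.5 to 99.5) and 97.8% (92.1 to 99.7) in TgAD libraries. These intervals overlap, and the exact permutation test (two-sided, p = 0.333) cannot go lower with these libraries. At these counts a difference in arm use was not detectable.

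miR-146b, which shares its seed with miR-146a, showed the reverse arm pattern. The 5p arm was read 0 and 3 times in WT and 0 times in either TgAD library. The 3p arm was read 12 and 20 times in WT and 14 and 34 times in TgAD, at a log2 fold change of 0.19 (SE 0.428; padj = 0.773, edgeR). Nearly all reads with the miR-146 seed thus came from miR-146a-5p, which made up 100% and 99.9% of the 2 arms together in WT (lower 95% exact bounds 99.8 and 99.6) and 100% in both TgAD libraries. The other relatives of miR-21a, miR-21b and miR-21c, had 0 reads in every library.

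miR-338-3p, miR-338-5p and miR-219a-2-3p, the arms linked to oligodendrocytes, had 0 reads in all 4 libraries. Of their relatives, miR-219a-5p, miR-219a-1-3p, miR-219b-5p, miR-219b-3p, miR-219c-3p, miR-3065-5p and miR-3065-3p also had 0 reads in each, and miR-219c-5p was read 1 and 0 times in WT and 5 and 2 times in TgAD. No comparison of genotypes can be made from these counts.

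A feature that these hairpins share is an annotated miRNA on the opposite strand. Mir338 and Mir3065 overlap over 87 bases, Mir219a-2 and Mir219b over 65 bases, and Mir219a-1 and Mir219c over 60 bases. The hairpins of miR-21a, miR-146a, miR-146b and miR-155 have no such partner. miR-338-3p and miR-3065-5p are shown with the bases that pair in capitals, to make visible that their reads would cover the same positions, chromosome 11 from 120014781 to 120014801, and differ by strand alone.
miR-338-3p: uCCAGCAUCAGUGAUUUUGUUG
miR-3065-5p: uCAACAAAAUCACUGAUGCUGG
The strand setting used in counting is not given in the sources used here. Without strand, reads of the members of such a pair cannot be told apart.

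Across the tables, 1675 of the 1966 listed miRNA had coordinates. Of these, 69 overlap a mature miRNA on the opposite strand, and 9 of the 69 (13.0%) had at least 1 read over the 4 libraries. Of the 1606 without such an overlap, 990 (61.6%) had at least 1 read. At least 10 reads were counted for 7.25% and 37.7%, respectively. The highest total among the 69 was 118 reads, against 3060593 reads among the others. Zero reads of miR-338-3p therefore stood in a class of miRNA in which most were at 0, and cannot be read as absence of the miRNA from the cells. The 69 include miR-338-3p itself, miR-3065-5p and arms of miR-219a, miR-219b and miR-219c. For miR-338-5p an overlap was seen with the hairpin alone, but miR-3065-3p, the other arm of that hairpin, had no coordinates to compare. Whether miR-338-5p belongs to that class is therefore not known here. Of the 10 miRNA with a hairpin but no mature overlap on record, 5 (50.0%) had reads, the highest being miR-451a with 12169. These 10 include miR-338-5p itself and miR-219b-5p, both without reads. For miR-219a-2-3p, which had no coordinates either, the overlap is known at the level of the hairpin alone. The part of counting in the zeros was not tested.

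**Figure D4:**
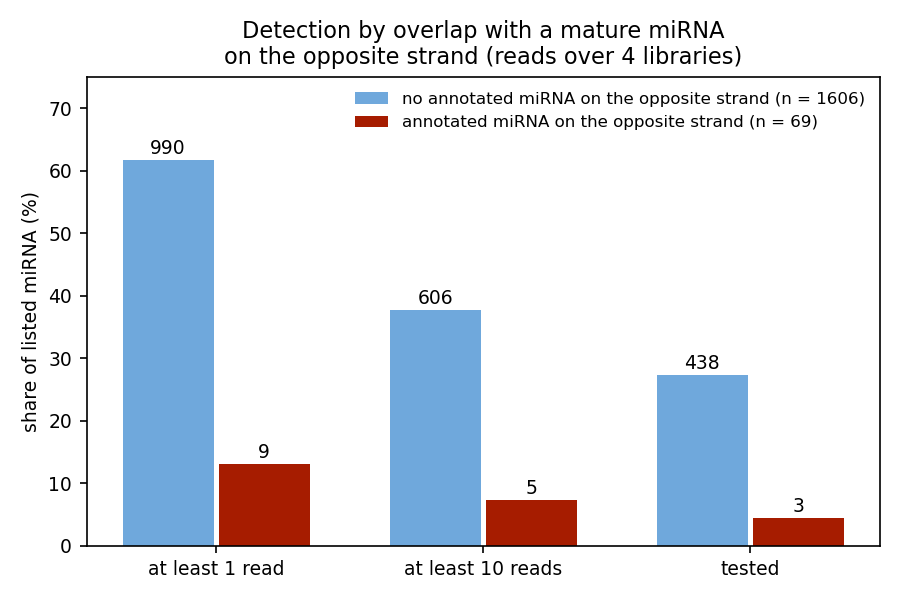
Share of listed miRNA in percent (y axis) with at least 1 read, with at least 10 reads and tested (x axis), for 1606 miRNA without and 69 with a mature miRNA on the opposite strand, with the number of miRNA above each bar. Detection was 61.6% without and 13.0% with such an overlap.

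Other miRNA linked to inflammation differed between genotypes in both directions. The list was written with earlier results of these libraries known. Of its 9 miRNA, 7 were tested, 2 were higher and 2 lower in TgAD neurons, and 3 did not pass, beside 15.7% higher and 17.3% lower over all tested miRNA, with a median log2 fold change of -0.0014 beside 0.032 over all tested miRNA. miR-125b-5p, which is annotated at 2 loci and can be induced by NF-kB, was read 1934 and 3846 times in WT, below its 5893 and 9423 reads in TgAD. It rose from 1072 ± 352 to 2245 ± 138 CPM (SD, n = 2 per genotype), its log2 fold change being 1.07 (padj = 0.0336 by the edgeR quasi-likelihood F-test, Benjamini-Hochberg adjusted). miR-132-3p, an activity-regulated miRNA of neurons that also restrains inflammation, rose from 914 ± 48.3 to 1761 ± 507 CPM (SD, n = 2 per genotype), its log2 fold change being 0.95.

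The members of the list that fell were miR-210-3p, which hypoxia induces, and miR-181c-5p, which targets TNF. miR-210-3p went from 246 ± 19.7 to 109 ± 2.82 CPM and miR-181c-5p from 1044 ± 165 to 506 ± 163 CPM (SD, n = 2 per genotype), log2 fold changes of -1.17 and -1.05. For miR-132-3p, miR-210-3p and miR-181c-5p padj was 0.0377, 0.0126 and 0.0377 (edgeR). Without the first TgAD library 4 of the list passed as well, of which 1 was higher, and with the column names of normalized values none passed in edgeR (0 of 7, 2 with an unadjusted p under 0.05). miR-187-3p, miR-31-5p and miR-34a-5p had log2 fold changes of -0.0014, 0.032 and -0.45 and did not pass. miR-9-5p and miR-147-3p had 0 reads in every library, and miR-9-5p is annotated at 3 loci with a mature miRNA on the opposite strand.

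Of 6 other miRNA linked to oligodendrocytes, 5 were tested and 1 passed, lower in TgAD neurons, beside 33.1% called and 17.3% called lower over all tested miRNA. miR-19b-3p, a member of the miR-17-92 cluster that promotes precursor proliferation, fell from 18.5 ± 0.915 to 6.55 ± 2.59 CPM (SD, n = 2 per genotype), its log2 fold change being -1.52 (padj = 0.0336 by the edgeR quasi-likelihood F-test, Benjamini-Hochberg adjusted). It is annotated at 2 loci and had between 19 and 52 reads per library. miR-17-5p, from the same cluster and the most abundant of the list with between 4995 and 9427 reads, had a log2 fold change of -0.26, and miR-138-5p, which keeps oligodendrocytes immature, of -0.63 with a SE of 0.330; neither passed. miR-23a-3p and miR-32-5p were at -0.075 and 0.19. The median over the 5 was -0.26, and without the second WT library or without the first TgAD library 2 of them passed. With the column names of normalized values none passed in edgeR (0 of 5, 1 with an unadjusted p under 0.05). With the GC content correction 3 of the 5 passed, 1 of them higher in TgAD neurons. The shares over all tested miRNA, here and beside the other lists, are not matched for GC content.

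**Figure D5:**
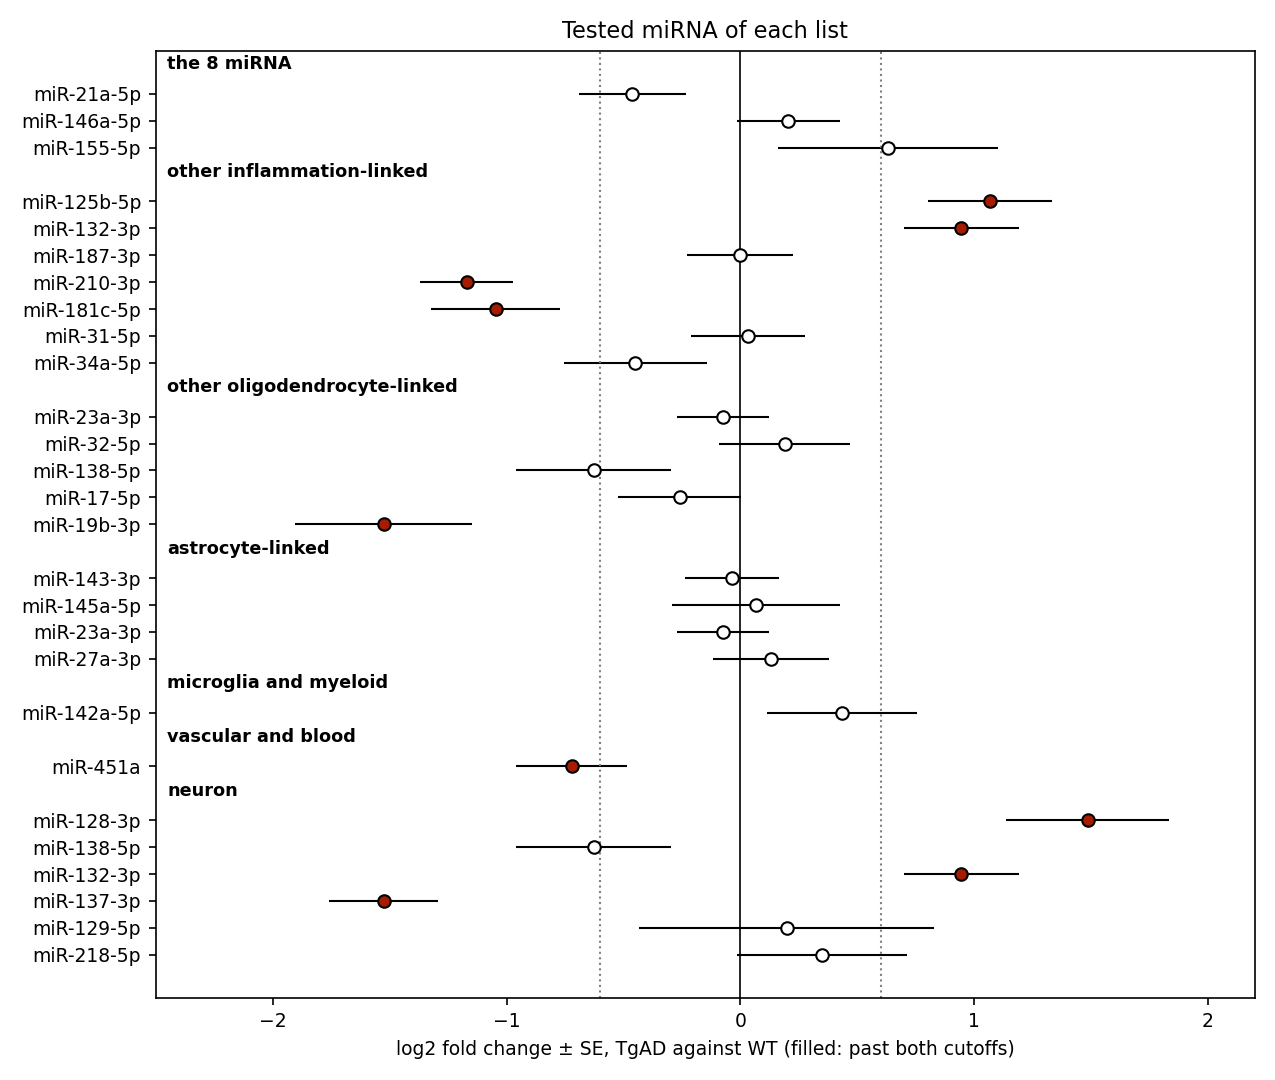
Log2 fold change of TgAD against WT with its SE (x axis) for the tested miRNA of each list (rows), with filled points past both cutoffs and dotted lines at 0.6 in either direction. The 3 tested miRNA of the 8 have open points, while miR-125b-5p and miR-132-3p are filled on the higher side and miR-210-3p, miR-181c-5p and miR-19b-3p on the lower side.

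Markers of the cell types that such cultures can hold were read beside these values. Of 5 miRNA linked to astrocytes, miR-143-3p, miR-145a-5p, miR-193a-3p, miR-23a-3p and miR-27a-3p, 4 were tested and 0 passed in edgeR, with 0 unadjusted p under 0.05. Their summed level was 1147 to 1320 CPM in WT and 1195 to 1231 CPM in TgAD libraries, with log2 fold changes between -0.075 and 0.13. Most of this sum was miR-143-3p, with 704 to 880 CPM, which like miR-145a-5p is also abundant in smooth muscle, and miR-23a-3p stands on the oligodendrocyte-linked list too, so the sum is not a level of astrocytes alone. The 4 microglial and myeloid markers summed to 10.6 to 11.0 CPM in WT and 14.6 to 16.2 CPM in TgAD libraries. Both TgAD libraries also lay above both WT libraries for 30.6% of all tested miRNA. Of these markers, miR-223-3p, a defining marker of myeloid cells, was read 3 and 4 times in WT and 8 times in each TgAD library. This is 1.28 and 1.37 CPM in WT and 2.92 and 1.99 CPM in TgAD libraries, with too few reads to be tested. miR-142a-5p was at a log2 fold change of 0.44 (padj = 0.371, edgeR), and miR-142a-3p was at 0 with a mature miRNA on its opposite strand.

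Among vascular and blood markers, 3 of 5 were at 0 in every library, with miR-126a-3p also overlapped on the opposite strand. miR-451a, a miRNA of red blood cells, fell from 1320 ± 14.8 to 801 ± 220 CPM (SD, n = 2 per genotype), its log2 fold change being -0.72 (padj = 0.0707 by the edgeR quasi-likelihood F-test, Benjamini-Hochberg adjusted). Both TgAD libraries lay below both WT libraries, as for 32.5% of all tested miRNA, miR-21a-5p among them. The neuronal markers were led by miR-128-3p with 43009 to 240174 reads. miR-124-3p, a defining miRNA of neurons, had only 1 to 7 reads and no coordinates from which to count its loci here. miR-9-5p and miR-9-3p had 0 reads and are annotated at 3 loci each. Since the handling of reads with several placements is not given, these low counts cannot be read as absence from the cells. Of 6 neuronal markers tested, 2 rose, miR-128-3p and the miR-132-3p already counted above, and 1 fell, miR-137-3p, beside 33.1% called over all tested miRNA. The list also shares miR-138-5p with the oligodendrocyte-linked miRNA. The part of the cell types in the levels of miR-21a-5p, miR-146a-5p and miR-155-5p was not tested, and in such bulk libraries fewer cells of a type cannot be told apart from less RNA per cell.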

How the data were processed

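Small RNA reads of 50 bp from 4 libraries were trimmed by the provider and mapped by the authors to GRCm38 with Bowtie2 without mismatch. The authors deposited raw counts per mature miRNA from HTSeq-count with the miRBase 22.1 annotation, 1 table per library. The strand setting, the handling of reads with several placements and tool versions are not given in the sources used here. The deposited normalized table is a signal, counts divided by a size factor; 100% of its values were whole multiples of 1 read (tolerance 0.01).

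The counts went into edgeR 4.0.16 under R 4.3.3 with limma 3.58.1, using TMM, filterByExpr (minimum count 10), which left 496 miRNA, and the quasi-likelihood test with genotype as the only factor. Standard errors are the log2 fold change divided by the square root of F. Calls need a log2 fold change beyond 0.6 either way and padj below 0.1, the less strict of the cutoffs in the paper. Benjamini-Hochberg adjustment was over all tested miRNA. DESeq2 1.42.0 was an alternative. The procedure was tested on simulated counts. The GC correction used local regression (span 0.75) of log2 CPM deviations (prior count 2) on mature GC content, known for 88.9% of tested miRNA. Loci and sequences are from RefSeq, gene context from GENCODE M21.

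The 8 miRNA and all lists were chosen with earlier results of these data known. Named are all 8, their opposite arms and relatives, the passing or most abundant miRNA of each list, and the nearest profile of each tested member; others in the lists were named after their values were seen. Cultures of single embryos are biological replicates per the methods. The edgeR p values rest on the spread of only 2 libraries per genotype, moderated with the spread of all tested miRNA. With these libraries an exact permutation test cannot go below p = 0.333.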

Additional observations from a re-analysis of the deposited data

How the results depend on the processing

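With 2 libraries per genotype, calls on the tested miRNA depended on settings. Of miR-21a-5p, miR-146a-5p and miR-155-5p, 0 passed with RLE normalization, the low-count filter dropped, 10 reads required in all libraries, DESeq2 or the robust option. With total counts as library size 1 passed, miR-21a-5p at -0.71, beside 165 of 496 tested miRNA, while miR-146a-5p turned to -0.077. With the GC content correction 2 passed, miR-146a-5p at 0.61 and miR-155-5p at 1.36, beside 141 of 496 tested miRNA, 76 of them higher. miR-21a-5p then turned to 0.19. The names of the normalized table gave -0.064 for miR-146a-5p and -1.22 for miR-155-5p; with them 0 of 480 tested miRNA passed in edgeR (54 had an unadjusted p under 0.05) against 164 of 496, and 0 of the inflammation-linked and 0 of the oligodendrocyte-linked miRNA. The cause was not tested.

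Without 1 library at a time, the log2 fold change ranged from -0.65 to -0.25 for miR-21a-5p, from 0.021 to 0.38 for miR-146a-5p and from -0.093 to 1.13 for miR-155-5p, the value turning without the first TgAD library. Between 0 and 1 of the 3 passed, the 1 being miR-21a-5p at -0.65 without the first WT library (padj = 0.0999, edgeR), and the lone library left in a genotype is then assumed to vary like the others. Calls over all miRNA ranged from 123 to 180, and oligodendrocyte-linked calls from 1 to 2. These were 2 with total counts, 2 with no filter and 3 with the GC content correction, beside 1. Shares of higher calls fell to 43 of 165 with total counts, beside 78 of 164.

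The libraries share only a replicate number; deviations of same-numbered libraries from their genotype means correlated at r = 0.22 over 496 miRNA. With the replicate block, 188 miRNA passed, 0 of the 3 members and 2 oligodendrocyte-linked miRNA. Arm shares from the normalized table were not run, since it does not list the passenger arms. For arms with 0 to 4 reads per library, depth limits any comparison.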

Other observations

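The column TR_2 of the normalized table, whose reads equal no count table, holds 1926952 recovered reads, among them 11361 of miR-21a-5p, 802 of miR-146a-5p and 13 of miR-155-5p. On the scale of its table these are 20501, 1447 and 23.5, below the values of the other columns for each of the 3 miRNA. It has no group by the labels of the count tables and entered no comparison but that by the names of its table.

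Over the 4 libraries, with each miRNA centered on its own mean log2 level so that only the shape of the profile counts and not its height, the tested miRNA nearest to miR-21a-5p was miR-671-5p, at a root mean square distance of 0.089 on the log2 scale. Nearest to miR-146a-5p was miR-1298-3p at 0.027, and nearest to miR-155-5p was miR-1945 at 0.16. Each was the nearest of 493 candidates, over only 4 libraries.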
